A study of Mus musculus with 14 samples.

Results

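The Hao1 locus on mouse chromosome 2 is where both guides of the study cut, and it was described here through the regions that CAST-Seq listed between 134.4 and 134.7 Mb of the mm10 genome. Of the 730 regions listed over 3 treatments, 10 lay in this window of 300 kb. SaCas9g1 had 2 of them, SaCas9g2 had 3 and SaCas9g1+g2 had 5. In each treatment one of them was the on-target region, which holds the cuts, and the other 7 lay to its left or right. The authors' tables of called sites held 7 of the 10, against 6.3% of all 730 regions. SaCas9g1 had 2 of its 2 called (against 7.58% of all regions of its table), SaCas9g2 had 2 of 3 (against 6.05%) and SaCas9g1+g2 had 3 of 5 (against 6.55%). The calls rest on the same hits that are described here. They include the on-target region of each treatment, which had the most hits, so its call is no result about the flanks. Besides it, every treatment had a called region to its right, and SaCas9g1+g2 also had a called region to its left.

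Hao1 encodes glycolate oxidase, a peroxisomal enzyme of the liver that turns glycolate into glyoxylate, the precursor of oxalate. Its disruption lowers oxalate production, which makes it a target in primary hyperoxaluria type 1. CAST-Seq reads outward from a bait primer beside the cut and records what DNA is joined to it, so large deletions and inversions appear as fusions to nearby sequence and translocations as fusions to other chromosomes. Per the paper, decoy primers on the other side of the target block the amplification of unedited DNA and of small indels. The on-target shares below are therefore not rates of editing. A hit is a distinct fusion, and the reads of a hit also carry its amplification by PCR. The tables give no orientation for the fusions, so a deletion and an inversion of the same stretch cannot be told apart where both keep the bait.

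The cells were CF-1 mouse embryonic fibroblasts (MEFs), nucleofected with ribonucleoproteins of 3 µg of SaCas9, the Cas9 nuclease of Staphylococcus aureus, and 72 pmol of guide RNA. They received guide g1 (2 libraries), guide g2 (4 libraries) or both guides (4 libraries), and DNA was taken 6 days later. The labels also list 4 untreated libraries, for which no counts are used here. The annealing temperature of the first PCR was 61 °C for SaCas9g1 and SaCas9g1+g2 and 63 °C for SaCas9g2, so guide g2 alone and this temperature cannot be told apart. The library names carry a mark, A, B or old, with 1 mark among the SaCas9g1 libraries, 2 among SaCas9g2 and 3 among SaCas9g1+g2. These numbers of marks equal the numbers of biological replicates, so both SaCas9g1 libraries are technical repeats of 1 culture, while the SaCas9g2 libraries stem from 2 cultures and the SaCas9g1+g2 libraries from 3. The labels do not say what the marks stand for. The names also differ in form, since some begin with Hao1 and others end in MEF, which the labels do not explain either. Every n below counts libraries, the SD of SaCas9g1 is technical only, and a comparison with SaCas9g1 is one with a single culture. Depth ran from 459219 to 1716787 reads per library, summed over the regions of its table, and from 362 to 2167 hits per library, summed over the called ones. Reads per library are available here for all regions and hits per library for called sites, and hits of regions that were not called are given as sums over libraries.

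Both guides target exon 2 of Hao1. The protospacers, 21 nt each, were read from the deposited tables and are shown with the PAM, the NNGRRT motif that SaCas9 needs beside its target, in capitals.
g1: tccgtggatagagcttccatcTGGAAT
g2: gtcaacttctgttttaggacaGAGAGT
The g1 target lies on the plus strand at positions 134548261 to 134548287, and the g2 target on the minus strand at positions 134548206 to 134548232. Hao1 is transcribed from the minus strand, so the side called right here leads to exon 1 and the promoter, and the side called left to exons 3 to 8. With the cut placed 3 bases from the PAM, g1 cuts between positions 134548278 and 134548279 and g2 between 134548214 and 134548215. The cuts lie 64 bp apart, which leaves a remainder of 1 when divided by 3. They fall after coding bases 139 and 203 of Hao1.

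Exon 2 is 152 bp long, at positions 134548129 to 134548280. The plus strand of exon 2 and the first 10 bases to its right, in intron 1, is shown with the protospacers in capitals, since both cuts lie in it.
exon 2: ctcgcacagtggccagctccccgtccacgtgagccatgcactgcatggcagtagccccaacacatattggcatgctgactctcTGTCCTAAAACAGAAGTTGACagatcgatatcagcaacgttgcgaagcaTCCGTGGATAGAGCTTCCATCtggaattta
The g1 cut lies 2 bp inside the right edge of the exon, and the PAM of g1 lies in intron 1. The g2 cut lies 66 bp from that edge. The bait primer matched the plus strand exactly once on chromosome 2, at positions 134548107 to 134548131. It lies 83 bp left of the g2 cut and points towards both cuts. A deletion that runs left past the bait would remove its site and is not read.

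The on-target region was wide in every treatment. With SaCas9g1 it ran from 134536167 to 134552699, 12.0 kb to the left and 4.42 kb right of the cuts. With SaCas9g2 it ran from 134535578 to 134555709, 12.6 kb left and 7.43 kb right. With SaCas9g1+g2 it ran from 134540279 to 134555169, 7.94 kb left and 6.89 kb right, and a separate called region followed on the left, from 134535578 to 134538550. Counted together, the called regions therefore reached 12.0 kb to the left for SaCas9g1 and 12.6 kb for the other two. The leftmost called base was the same, 134535578, with SaCas9g2 and SaCas9g1+g2. Among the 18 pairs of overlapping regions from these tables, 5 shared their start and 2 their end.

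Each treatment had a called right flank region. It ran from 134554429 to 134558232 with SaCas9g1 (3.80 kb), from 134557458 to 134559708 with SaCas9g2 (2.25 kb) and from 134557335 to 134558255 with SaCas9g1+g2 (0.921 kb). The farthest called base thus lay 9.95, 11.4 and 9.98 kb right of the g1 cut. From the first to the last called base, the stretch measured 22.1, 24.1 and 22.7 kb in the same order. The regions are wider than the fusions they hold, since no region of the 3 tables spans less than 500 bp from start to end. No neighbouring regions lay closer than 1692 bp, so the gap of 1.73 kb (SaCas9g1) or 1.75 kb (SaCas9g2) between the on-target and right flank regions is near the smallest gap the tables hold. With SaCas9g1+g2 the gap was 2.17 kb on the right and 1.73 kb on the left. The distance at which fusions were joined into a region is not given in the sources used here.

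**Figure D1:**
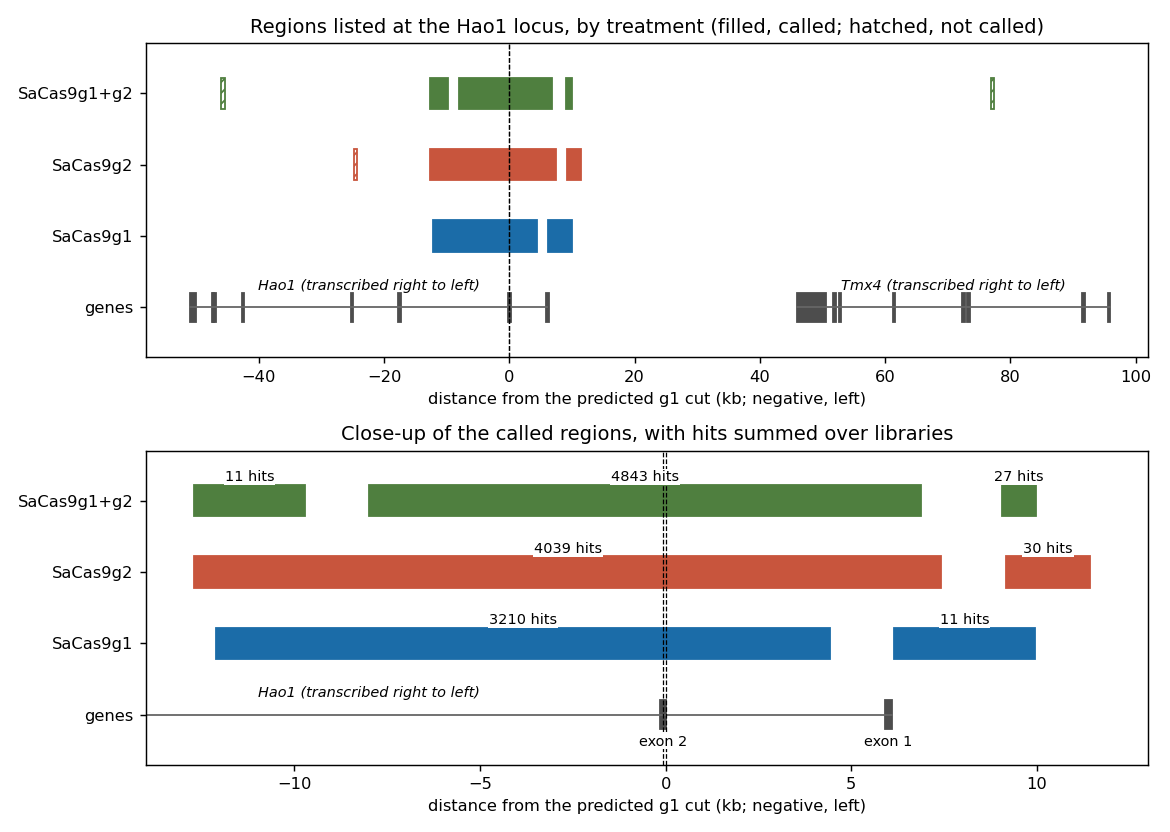
Regions listed at the Hao1 locus in each treatment (filled boxes, called; hatched boxes, not called; very narrow boxes are drawn wider so that they show), with the exons of Hao1 and Tmx4 as dark boxes and the predicted cuts as dashed lines; the horizontal axis is the distance from the g1 cut in kb. The lower panel gives hits summed over libraries, with 3210, 4039 and 4843 hits in the on-target regions against 11 to 30 in the called flank regions.

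Exon 2, intron 1 and intron 2 of Hao1 were in the on-target region of all 3 treatments. Exon 1, which holds the transcription start at 134554368 and the start codon, lies 6.09 kb right of the g1 cut at its far edge. It was within the on-target region with SaCas9g2 and SaCas9g1+g2. With SaCas9g1 it fell in the gap between the on-target region and the right flank region, which began 61 bp upstream of the transcription start, so no SaCas9g1 region held exon 1. On the left, the called regions ended in intron 2 in every treatment and reached none of exons 3 to 8. Exon 3 begins 17.4 kb left of the g2 cut. The bait lies 83 bp left of that cut, so a deletion from the cuts into these left regions is not read. The reach to the left is therefore not comparable with that to the right. The right flank regions of SaCas9g2 and SaCas9g1+g2 began 3090 and 2967 bp upstream of the transcription start. The authors' annotation of the 3 right flank regions differs accordingly, with a promoter label for SaCas9g1 and SaCas9g1+g2 and an intergenic label for SaCas9g2, although the regions overlap.

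The 3 right flank regions shared a stretch of 775 bp, from 134557458 to 134558232, which lies 9.18 to 9.95 kb right of the g1 cut. Of its bases, 98.6% are soft-masked as repeat in the reference, against 32.1% of chromosome 2. In the stretch that the 3 on-target regions share, 19.0% are soft-masked. The whole right flank regions were soft-masked at 48.74% (SaCas9g1), 70.37% (SaCas9g2) and 96.96% (SaCas9g1+g2). The tables do not place hits within a region, so the hits need not lie in the shared right flank stretch. That stretch opens with a run of 15 copies of CTTT. This run is printed here in capitals with its surroundings, because it stands inside the right flank region of every treatment.
right flank run: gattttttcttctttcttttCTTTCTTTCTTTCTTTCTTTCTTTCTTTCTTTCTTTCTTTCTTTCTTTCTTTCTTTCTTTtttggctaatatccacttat
The printed bases are at chr2:134557465-134557564 on the plus strand of mm10. Searched on both strands, 10 consecutive copies of CTTT occurred in 0.684% of the 230075 windows of the same length on chromosome 2. The motif was taken from this stretch itself, so this share is a description and not a test. The alignment of short reads in repeats is less certain, and the part of these repeats in the right flank hits was not tested.

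Guide g2 alone had the lowest share of reads in the on-target region, and guide g1 alone the highest. With SaCas9g1, the on-target region held 95.1% (library g1-B-MEF) and 85.9% (Hao1-g1B) of the reads of all regions. With SaCas9g2 it held 37.7% (g2-A-MEF), 41.2% (Hao1-g2A), 51.9% (g2-B-MEF) and 39.5% (Hao1-g2B). With SaCas9g1+g2 it held 84.6% (g1-2-A-MEF), 69.1% (g1-2-B-MEF), 67.0% (Hao1-g1-2B) and 76.8% (g1-2-old-MEF). The ranges of the 3 treatments did not overlap, with means of 90.5% ± 6.56 (SD, n = 2 libraries) for SaCas9g1, 42.6% ± 6.35 (n = 4) for SaCas9g2 and 74.4% ± 8.01 (n = 4) for SaCas9g1+g2. The same order stood among the libraries marked B alone, where both SaCas9g2 libraries were below both SaCas9g1+g2 libraries, and these below both SaCas9g1 libraries.

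The share with SaCas9g2 was 0.570-fold that with SaCas9g1+g2 on the mean log2 scale (exact two-sided permutation test over libraries, p = 0.0286, Holm-adjusted over the 3 pairs p = 0.0857). Against SaCas9g1 it was 0.467-fold (exact permutation p = 0.133, adjusted p = 0.267), and SaCas9g1+g2 was 0.819-fold SaCas9g1 (exact permutation p = 0.133, adjusted p = 0.267). The values 0.0286 and 0.133 are the smallest p that 4 against 4 and 4 against 2 libraries allow, and after Holm adjustment no comparison of these libraries could fall under 0.0857, so none could pass 0.05. These tests treat libraries as independent. With libraries of the same mark averaged, the exact permutation p was 0.20 for SaCas9g2 against SaCas9g1+g2 (adjusted p = 0.60), the smallest that 3 against 2 marks allow, 0.667 for SaCas9g2 against SaCas9g1 and 0.50 for SaCas9g1+g2 against SaCas9g1 (both adjusted p = 1), the smallest that a single SaCas9g1 culture allows. The denominators also differ, since the tables list 66, 496 and 168 regions for SaCas9g1, SaCas9g2 and SaCas9g1+g2.

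In hits at called sites, where each fusion counts once, the treatments lay closer together than in reads of all regions. Both the change to hits and the leaving out of uncalled regions enter here. Summed over libraries, the on-target region held 88.2% (SaCas9g1), 57.4% (SaCas9g2) and 79.3% (SaCas9g1+g2) of the hits of all regions. Of the hits at called sites, the on-target region held 93.1% and 95.8% for SaCas9g1, 68.7% to 84.4% for SaCas9g2 and 81.5% to 93.7% for SaCas9g1+g2, and the range of SaCas9g1+g2 overlaps both others. The log2 ratio of SaCas9g2 over SaCas9g1 was -0.26 in hits (exact permutation p = 0.133, adjusted p = 0.267) and -0.40 in reads of called sites, against -1.10 in reads of all regions. That of SaCas9g2 over SaCas9g1+g2 was likewise -0.17 (exact permutation p = 0.0571, adjusted p = 0.171) and -0.33, against -0.81, and that of SaCas9g1+g2 over SaCas9g1 was -0.09 (exact permutation p = 0.267, adjusted p = 0.267) and -0.07, against -0.29. The size of each difference thus varied between reads of all regions, reads of called sites and hits, with the same direction in each. Library g1-2-A-MEF had the highest share of reads but the lowest share of hits of its treatment, 81.5% of 362 hits (95% Clopper-Pearson interval 77.1% to 85.4%). It was the library with the fewest hits of all. Among the SaCas9g2 libraries, g2-A-MEF stood lowest on both measures, with 68.7% of its hits (65.7% to 71.7%). Taking the whole locus in place of the on-target region changed little, with 90.7%, 43.0% and 75.0% of the reads of all regions on average for SaCas9g1, SaCas9g2 and SaCas9g1+g2.

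**Figure D2:**
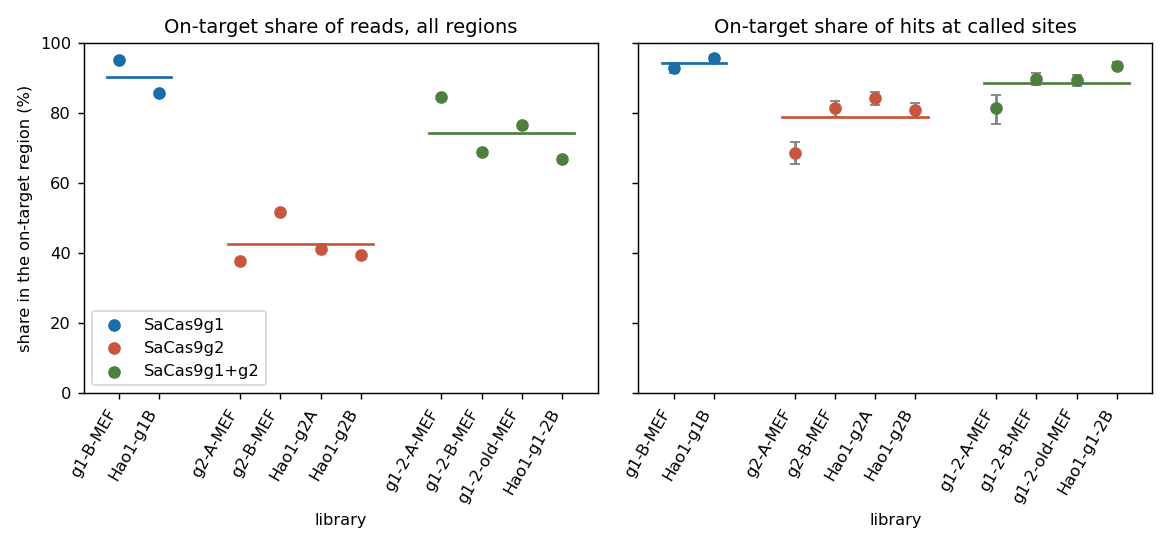
Share of each library's reads in all regions (left panel) and of its hits at called sites (right panel) that fell in the on-target region, in percent. Points are libraries, horizontal lines are treatment means, and the bars on the hits are 95% Clopper-Pearson intervals. The SaCas9g2 libraries lie at 37.7% to 51.9% of reads, below all others, and at 68.7% to 84.4% of hits.

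The called right flank region held few hits in every library. With SaCas9g1 it had 6 hits (g1-B-MEF) and 5 hits (Hao1-g1B), beside 1386 and 1824 on-target hits. With SaCas9g2 it had 8 (g2-A-MEF), 17 (Hao1-g2A), 3 (g2-B-MEF) and 2 hits (Hao1-g2B), beside 642, 1367, 884 and 1146. With SaCas9g1+g2 it had 1 (g1-2-A-MEF), 1 (g1-2-B-MEF), 8 (Hao1-g1-2B) and 17 hits (g1-2-old-MEF), beside 295, 1241, 2030 and 1277. All 10 libraries thus had at least 1 hit there. In g1-2-A-MEF and g1-2-B-MEF, however, the hit was 1 read each, and in Hao1-g2B the 2 hits had 3 reads. Recurrence in these libraries rests on single reads or nearly so. Ranked by hits over all regions of the table, the right flank of SaCas9g1 came 7th of 66, that of SaCas9g2 6th of 496 and that of SaCas9g1+g2 5th of 168.

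Per 100 on-target hits, the right flank had 0.433 and 0.274 hits with SaCas9g1. With SaCas9g2 it had 1.25 and 1.24 in the libraries marked A and 0.339 and 0.175 in those marked B. With SaCas9g1+g2 it had 0.339 in the library marked A, 0.0806 and 0.394 in those marked B and 1.33 in the one marked old. The treatments overlapped, and the high values lay in the A libraries of SaCas9g2 and in the old library of SaCas9g1+g2. In the libraries marked B, which all 3 treatments have, the values ran from 0.0806 to 0.433 with the treatments intermixed. The mean was 0.354 ± 0.112 (SD, n = 2 libraries of 1 culture) with SaCas9g1, 0.751 ± 0.574 (n = 4) with SaCas9g2 and 0.536 ± 0.547 (n = 4) with SaCas9g1+g2.

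No difference between treatments in these hits exceeded the spread between libraries. With 0.5 added to the flank hits, SaCas9g2 was 1.64-fold SaCas9g1 (exact permutation p = 0.667), SaCas9g1+g2 1.15-fold SaCas9g1 (exact permutation p = 0.800) and SaCas9g2 1.43-fold SaCas9g1+g2 (exact permutation p = 0.657), each with an adjusted p of 1. As a share of right flank and on-target hits together, the A libraries of SaCas9g2 stood at 1.23% (95% Clopper-Pearson interval 0.533% to 2.41%) and 1.23% (0.717% to 1.96%), and the B libraries at 0.338% (0.0698% to 0.985%) and 0.174% (0.0211% to 0.628%). For g1-2-A-MEF, 1 hit of 296 allowed 0.00855% to 1.87%, so a level as high as that of the old library was not distinguishable there at this depth.

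**Figure D3:**
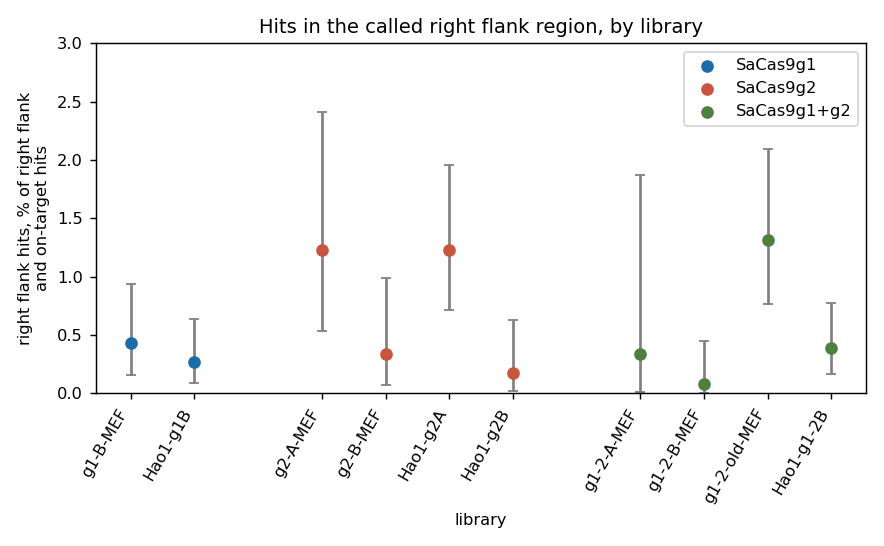
Hits in the called right flank region as a percentage of right flank and on-target hits together, for each library. Points are libraries and bars are 95% Clopper-Pearson intervals; g2-A-MEF, Hao1-g2A and g1-2-old-MEF stand above 1.2% and the other 7 libraries below 0.44%.

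Reads in the right flank varied far more than hits. They numbered 204 and 2892 with SaCas9g1. With SaCas9g2 they numbered 5142 (g2-A-MEF), 20217 (Hao1-g2A), 871 (g2-B-MEF) and 3 (Hao1-g2B). With SaCas9g1+g2 the called right flank had 1 (g1-2-A-MEF), 1 (g1-2-B-MEF), 4489 (Hao1-g1-2B) and 8635 reads (g1-2-old-MEF). Including the far right region described below, right flank reads per 100 on-target reads lay between 0.0334 and 0.481 for SaCas9g1, between 0.000633 and 2.86 for SaCas9g2 and between 0.000257 and 1.30 for SaCas9g1+g2. These ranges overlapped, and with 0.5 added to the flank reads SaCas9g2 was 7.25-fold SaCas9g1+g2 (exact permutation p = 0.486), 1.19-fold SaCas9g1 (exact permutation p = 0.933), and SaCas9g1+g2 was 0.164-fold SaCas9g1 (exact permutation p = 0.800), with adjusted p of 1 throughout.

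The left side beyond the on-target region had a called region with SaCas9g1+g2 only, where the on-target region of SaCas9g2 covers the same stretch and that of SaCas9g1 all of it but the outermost bases, since it starts at 134536167. It lay wholly in intron 2. Its 11 hits came from the libraries marked B, with 5 hits and 1057 reads in g1-2-B-MEF and 6 hits and 7070 reads in Hao1-g1-2B, or 0.403 and 0.296 per 100 on-target hits. The A and old libraries had none beside 295 and 1277 on-target hits. By counting error this allows up to 1.02 and 0.235 per 100, taking a limit of 3 hits and not a Clopper-Pearson interval. The absence from the A library is thus within its depth. The limit of the old library lies below both B values, but these rest on 5 and 6 hits and carry counting error too. The region was called through the B libraries alone, so a difference between the B and old libraries cannot be judged on it.

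The remaining 3 regions of the window were not among the called sites. With SaCas9g2, a region at 134523422 to 134523922 in intron 3 of Hao1, 24.3 kb left of the g2 cut at its nearest edge, had 2 hits and 798 reads, all in g2-A-MEF. With SaCas9g1+g2, a region at 134502322 to 134502903 in intron 5, 45.3 kb left, had 9 hits and 5778 reads, all in g1-2-old-MEF. It had nearly as many hits as the called left region, but every called region of this table had reads in at least 2 libraries. The third, at 134625153 to 134625673, lay 76.9 kb right of the g1 cut in intron 2 of Tmx4, a gene for a thioredoxin-related membrane protein, and had 2 hits in all, with 6336 reads in Hao1-g1-2B and 1 read in g1-2-B-MEF. Hao1 and Tmx4 were the only annotated genes in the window. Regions seen in 1 library were common, and made up 86.4% of the SaCas9g1 table, 62.9% of that of SaCas9g2 and 54.8% of that of SaCas9g1+g2.

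All 7 regions outside the on-target regions together made up a small part of the locus. Their share of locus reads was 0.0334% and 0.479% for SaCas9g1, between 0.000633% and 2.78% for SaCas9g2 and between 0.000257% and 2.10% for SaCas9g1+g2. The called flank regions held 0.431% and 0.273% of locus hits for SaCas9g1, 0.174% to 1.23% for SaCas9g2 and 0.338% to 1.31% for SaCas9g1+g2. The read share of SaCas9g2 was 1.22-fold that of SaCas9g1 (exact permutation p = 0.933) and 1.28-fold that of SaCas9g1+g2 (exact permutation p = 0.771), and that of SaCas9g1+g2 0.95-fold that of SaCas9g1 (exact permutation p = 0.933), with 0.5 added to the flank reads and each adjusted p at 1.

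Each on-target hit stood for many reads. Reads per on-target hit were 441 and 330 with SaCas9g1, 757 (g2-A-MEF), 517 (Hao1-g2A), 430 (g2-B-MEF) and 413 (Hao1-g2B) with SaCas9g2, and 1317 (g1-2-A-MEF), 451 (g1-2-B-MEF), 411 (Hao1-g1-2B) and 815 (g1-2-old-MEF) with SaCas9g1+g2. The B libraries of all treatments lay between 330 and 451, and the A and old libraries between 517 and 1317. Values also differed by the form of the name. Wherever a treatment and mark had both forms, the library beginning with Hao1 had fewer reads per on-target hit and more on-target hits. SaCas9g1+g2 was 1.75-fold SaCas9g1 (exact permutation p = 0.267), SaCas9g2 1.35-fold SaCas9g1 (exact permutation p = 0.40) and SaCas9g2 0.769-fold SaCas9g1+g2 (exact permutation p = 0.457), each with an adjusted p of 0.800. The called flank regions spread wider, from 1 read per hit (the right flank in g1-2-A-MEF and g1-2-B-MEF) to 1189 (the right flank in Hao1-g2A) and 1178 (the left flank in Hao1-g1-2B). In the right flank of Hao1-g2B, 2 hits had 3 reads. Read counts of the flanks therefore rest on few, unevenly amplified fusions.

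**Figure D4:**
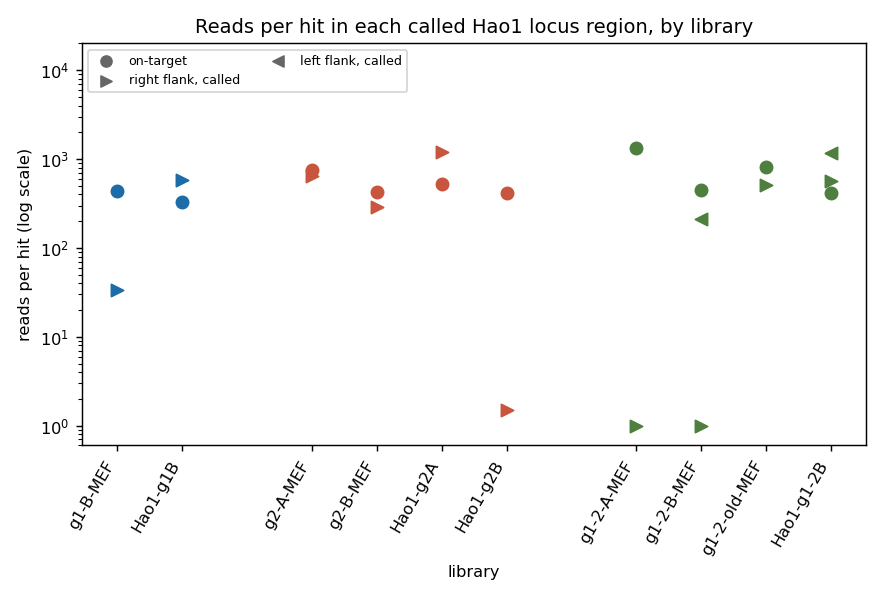
Reads per hit (log scale) in each called Hao1 locus region with at least 1 hit, by library, with circles for the on-target region and triangles that point to the side of the flank region. On-target values lie between 330 and 1317, while flank values run from 1 to 1189.

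Regions were denser around the cuts than elsewhere. Leaving out the on-target region, the window of 0.3 Mb held 1 region in the SaCas9g1 table, 2 in that of SaCas9g2 and 4 in that of SaCas9g1+g2, which is 3.33, 6.67 and 13.3 per Mb. The part of chromosome 2 within 10 Mb of the g1 cut and outside the window held 2, 25 and 9 regions (0.102, 1.27 and 0.457 per Mb), and the remaining genome 0.0229, 0.173 and 0.0569 per Mb. Of those 25 regions with SaCas9g2, 1 was called, against 6.05% of all regions of its table. None of the 2 with SaCas9g1 or the 9 with SaCas9g1+g2 was called, against 7.58% and 6.55%. Counts this small do not set the belt apart. These densities are descriptions of pooled tables, and the numbers of libraries behind them differ. The window counts include the called flank regions, which lie 1.73 to 2.17 kb from the on-target region. They therefore depend on how fusions were joined into regions.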

How the data were processed

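CAST-Seq libraries of nucleofected MEFs were grouped by treatment from the labels. Per the submitters' processing notes the authors used Bowtie2 2.3.4.2 and bedtools 2.27.1, and they joined fusions into regions. One table of all regions and one of called sites were deposited for each treatment. The deposited counts, which are reads or hits per region and library, are not normalized. Reads were taken per library from the tables of all regions and hits per library from those of called sites, because the library names match no single sample. The authors' p-value and alignment score columns, which rate regions against untreated cells and guides against regions, were not used. Blank lines, 2, 1 and 3 in the SaCas9g1, SaCas9g2 and SaCas9g1+g2 tables of all regions, were left out. The notes name human and mouse builds, and the guides match the listed positions in mm10.

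Regions of chromosome 2 overlapping the window were taken as the locus, and genes were named when they overlap the window. Genes are from GENCODE, sequences from the RefSeq GRCm38 assembly and the deposited guide columns. Per-library log2 values, with a pseudocount of 0.5 on flank counts, were compared between treatments by exact two-sided permutation tests, Holm-adjusted over 3 pairs, for 6 measures, at a threshold of 0.05. Since libraries outnumber cultures, p-values partly measure technical spread, and the SaCas9g1 libraries come from 1 culture. Intervals are 95% Clopper-Pearson intervals and cover counting error only, as PCR reads are not independent molecules. Alternatives were each library left out, differences in place of log2 values, averages by library mark, other denominators, hits or called regions in place of reads of all regions, and a pseudocount of 1. The members and lists were chosen with earlier results of these data known. The functions were tested on simulated data. Values were computed in Python 3.11.15 with SciPy 1.17.1, NumPy 2.4.6 and pandas 2.3.3, and drawn with Matplotlib 3.10.9.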

Additional observations from a re-analysis of the deposited data

How the results depend on the processing

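Of 192 alternative values for the 18 comparisons, 173 kept their direction and 19 turned it, and none passed 0.05 after Holm adjustment, which these numbers of libraries do not allow. The comparisons of the on-target share, the locus share and the on-target reads per hit kept their direction under every alternative run. The flank share of SaCas9g1+g2 against SaCas9g1, -0.07 on the log2 scale, turned to 0.029 with a pseudocount of 1, to 0.92 in hits of called regions and to 0.66 percentage points as a difference of values, and that of SaCas9g2 against SaCas9g1+g2, 0.36, turned to -0.21 in hits of called regions. The right flank reads of SaCas9g1+g2 against SaCas9g1, -2.61, turned to 0.27 reads per 100 as a difference of values. The cause was not tested.

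With each library left out in turn, the log2 flank share ran from -1.63 to 2.86 (SaCas9g2 against SaCas9g1), from -1.99 to 2.69 (SaCas9g1+g2 against SaCas9g1) and from -2.40 to 2.93 (SaCas9g2 against SaCas9g1+g2). The right flank hits ran from 0.35 to 1.22, from -0.35 to 0.82 and from -0.10 to 1.07 in the same order, and the right flank reads from -1.68 to 2.80, from -4.60 to -0.69 and from 0.94 to 5.41. The on-target share of reads ran from -1.20 to -1.02, from -0.36 to -0.21 and from -0.91 to -0.75. No paired analysis was possible because the library columns carry no replicate numbers. Depth limits the flanks, where 1 to 17 hits stand behind each right flank value.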
